A study of Mus musculus with 139 samples.

Results

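Ctsk, Acp5, Atp6v0d2, Dcstamp and Ocstamp are 5 genes named for their part in osteoclasts, the cells that resorb bone, and their RNA was followed here in the lungs of mice given carbon nanotubes or asbestos. The genes were chosen by symbol, with earlier results of these data known. All 5 were found, each with 1 array feature of its own, among the 22180 genes of the array that had such a feature. Ctsk rose with nanotubes at the higher doses and with asbestos at every time, Atp6v0d2 and Acp5 rose in fewer of these comparisons and by less, Dcstamp rose in 1 of them, and no change of Ocstamp passed the test.

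The mice were males of the strain written C57BL/J6 in the labels, 7 weeks old when obtained, and each received a single material by pharyngeal aspiration under isoflurane. The groups were dispersion medium alone (DM, a saline with glucose, mouse serum albumin and the phospholipid DPPC, the vehicle and a dose of 0 µg), carbon nanotubes of several walls (multi-walled, MWCNT) at doses of 1, 10, 40 or 80 µg, and crocidolite asbestos at 120 µg. Lung tissue was collected after 1, 6 or 12 months, for 18 groups of treatment, dose and time, and no mouse was labelled as carrying an altered gene. Each group held 8 mice, except 1 µg MWCNT at 12 months with 6, crocidolite at 1 month with 5 and crocidolite at 12 months with 7, and 1 mouse of 1 µg at 1 month was on 2 of the 139 arrays. Only 1 dose of asbestos was used, and it differs in mass from every nanotube dose. RNA came from lung tissue with all its cell types, so more or fewer cells of a type and more or less RNA per cell cannot be told apart in any value given here.

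An osteoclast forms when precursors of the monocyte and macrophage line, under the cytokines RANKL and M-CSF, fuse into a cell with many nuclei. It pumps acid onto bone through a proton pump, the V-ATPase, and digests the exposed matrix with cathepsin K. Macrophages of the lung share the ancestry of osteoclasts, and several genes first studied in bone are also active in macrophages that take up particles. Ctsk encodes cathepsin K, a protease that cuts collagen. Acp5 encodes the tartrate-resistant acid phosphatase TRAP, used as a stain for osteoclasts. Atp6v0d2 encodes the d2 form of a subunit in the membrane part of the V-ATPase, and the d1 form is made in most tissues. Dcstamp and Ocstamp encode membrane proteins, DC-STAMP and OC-STAMP, needed for the fusion of osteoclast precursors and of macrophages into giant cells.

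The stretch of genome around a gene's start is shown for the members whose start lies in the RefSeq promoter table used here. These were 2 of 5 members, Ctsk and Acp5, with 4 windows. Both rose in the crocidolite groups at every time, as did Atp6v0d2, which had no window there. Each window runs from 250 bases before the start to 50 bases after it, 300 bases in all, 5′ to 3′ on the gene's own strand, with coordinates of RefSeq's mouse build GRCm38.p6. The windows are chr3:95498960-95499259 on the plus strand for Ctsk, and chr9:22135697-22135996, chr9:22131816-22132115 and chr9:22130549-22130848 on the minus strand for Acp5. Capitals mark letters that match 1 of 4 short motifs: TCANGTG (bound by MITF and its relatives), TGANTCA (AP-1), GGAAA (the core of NFAT sites) and GAGGAA (the core of PU.1 sites).
Ctsk: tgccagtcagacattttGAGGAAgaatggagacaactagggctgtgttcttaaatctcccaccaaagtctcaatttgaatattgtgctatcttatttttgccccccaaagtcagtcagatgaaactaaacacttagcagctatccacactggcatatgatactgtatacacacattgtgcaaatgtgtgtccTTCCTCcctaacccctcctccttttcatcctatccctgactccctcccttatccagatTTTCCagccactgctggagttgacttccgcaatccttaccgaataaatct
Acp5 window 1: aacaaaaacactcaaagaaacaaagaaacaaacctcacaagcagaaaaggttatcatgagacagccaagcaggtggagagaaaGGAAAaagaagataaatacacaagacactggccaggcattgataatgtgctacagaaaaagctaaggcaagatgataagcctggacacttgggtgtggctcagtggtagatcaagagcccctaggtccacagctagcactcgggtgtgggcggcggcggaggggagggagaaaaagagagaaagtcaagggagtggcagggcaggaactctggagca
Acp5 window 2: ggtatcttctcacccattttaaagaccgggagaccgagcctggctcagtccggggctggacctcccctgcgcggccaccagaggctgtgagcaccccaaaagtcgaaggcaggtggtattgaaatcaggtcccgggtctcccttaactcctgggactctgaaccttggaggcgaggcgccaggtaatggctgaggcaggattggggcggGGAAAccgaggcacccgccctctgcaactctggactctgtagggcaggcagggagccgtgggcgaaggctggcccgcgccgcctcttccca
Acp5 window 3: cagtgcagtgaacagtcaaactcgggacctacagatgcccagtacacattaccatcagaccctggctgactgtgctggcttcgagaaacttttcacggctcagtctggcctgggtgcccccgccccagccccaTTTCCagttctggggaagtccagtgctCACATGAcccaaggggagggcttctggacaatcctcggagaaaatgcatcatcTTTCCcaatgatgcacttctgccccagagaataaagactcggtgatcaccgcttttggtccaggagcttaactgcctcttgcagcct
Both strands were searched, and a motif on the other strand appears as its complement read backwards. The Ctsk window held GAGGAA at positions -233 and -58, counted from the start at 1, and GGAAA at position 1. In Acp5, GGAAA was at -167 in window 1, at -41 in window 2 and at -117 and -37 in window 3, where TCANGTG was also found, at -90. TGANTCA was in none of the 4 windows. Such short motifs are common: of all 32851 windows of the table, 61.3% held GGAAA, 28.3% GAGGAA, 14.3% TCANGTG and 7.8% TGANTCA, and GGAAA and GAGGAA can overlap. A match describes letters and is not a binding site. The array gives 1 value for Acp5 and so does not tell which of its 3 starts was used.

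Levels below are log2 values of the deposited array table, differences are exposed minus DM on the same scale with the standard error (SE) of the fit, and the adjusted p comes from limma with Benjamini-Hochberg adjustment over all 22180 genes. A gene rose or fell where this p was under 0.05. All comparisons with DM at a time share the same 8 DM mice, and their values are set side by side without counting one as support for another. The level of an array feature depends on its probes, so levels of different genes are not compared. Some arrays, 38 of 139, carry the word replacement in their titles, which the labels do not explain, and values within each kind of array are given where they touch a result.

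Ctsk was even in the vehicle lungs. At 1 month its lowest, median and highest log2 levels in DM were 5.50, 5.95 and 6.20. At 10 µg MWCNT they were 6.31, 6.69 and 7.99, at 40 µg 7.54, 7.96 and 8.79, and at 80 µg 8.25, 8.52 and 9.31. The 5 crocidolite mice were at 8.10, 8.23, 9.68, 9.87 and 10.17. From 10 µg up, every exposed mouse of the 1-month groups thus lay above every DM mouse, and the crocidolite group had 2 mice near the lower end and 3 near the upper end. A separation of all exposed from all DM mice was seen in 0.0271% of all genes at 10 µg, 0.352% at 40 µg, 0.775% at 80 µg and 1.23% for crocidolite.

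At 6 months Ctsk ranged from 5.42 to 6.00 in DM with a median of 5.77. Its lowest, median and highest levels were 6.55, 7.26 and 8.34 at 40 µg, 6.32, 7.71 and 9.03 at 80 µg, and 6.95, 8.16 and 8.82 with crocidolite. The 80 µg mice were the most spread of any group of this gene, with an SD of 1.02, and 3 of the 8 lay between 8.48 and 9.03 while another 3 lay between 6.32 and 7.22. At 12 months DM ran from 5.47 to 6.34 with a median of 6.15, 40 µg from 6.56 to 7.75 around 7.00, 80 µg from 7.19 to 8.10 around 7.46, and crocidolite from 7.87 to 8.97 around 8.46. Groups at 40 µg, 80 µg and crocidolite did not overlap with DM at either time. At 6 months that held for 0.113%, 0.0676% and 0.392% of all genes in these comparisons, in that order, and at 12 months for 0.0496%, 0.0992% and 1.43%.

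The fitted differences of Ctsk at 40 µg were 2.22 ± 0.26 (SE) at 1 month (4.67-fold, adjusted p = 1.28e-10 by limma) and 1.59 ± 0.26 at 6 months (3.02-fold, adjusted p = 4.45e-05). At 80 µg it rose 6.97-fold, 4.12-fold and 2.68-fold at 1, 6 and 12 months. With crocidolite the rise was 3.33 ± 0.29 at 1 month (10.1-fold, adjusted p = 1.36e-16), 2.27 ± 0.26 at 6 months (4.81-fold, adjusted p = 2.29e-11) and 2.41 ± 0.27 at 12 months (5.31-fold, adjusted p = 3.44e-12). Below 40 µg the test was not passed: at 10 µg the difference was 0.98 ± 0.26 at 1 month with an adjusted p of 0.326 by limma, although all 8 mice lay above DM, and at 40 µg and 12 months it was 1.00 ± 0.26 with an adjusted p of 0.0736. Without replicate 4 of that 40 µg group the adjusted p was 0.0374. At 1 µg the differences were 0.18, 0.28 and 0.04 at the 3 times, and a single mouse at 6 months, at 7.87, stood above the next at 5.96. The crocidolite mice at 9.87 and 10.17 were 2 of the 10 whose arrays correlated least with the rest. Without those 10 arrays the 1-month crocidolite difference was 2.74 ± 0.35 (adjusted p = 1.18e-08).

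**Figure D1:**
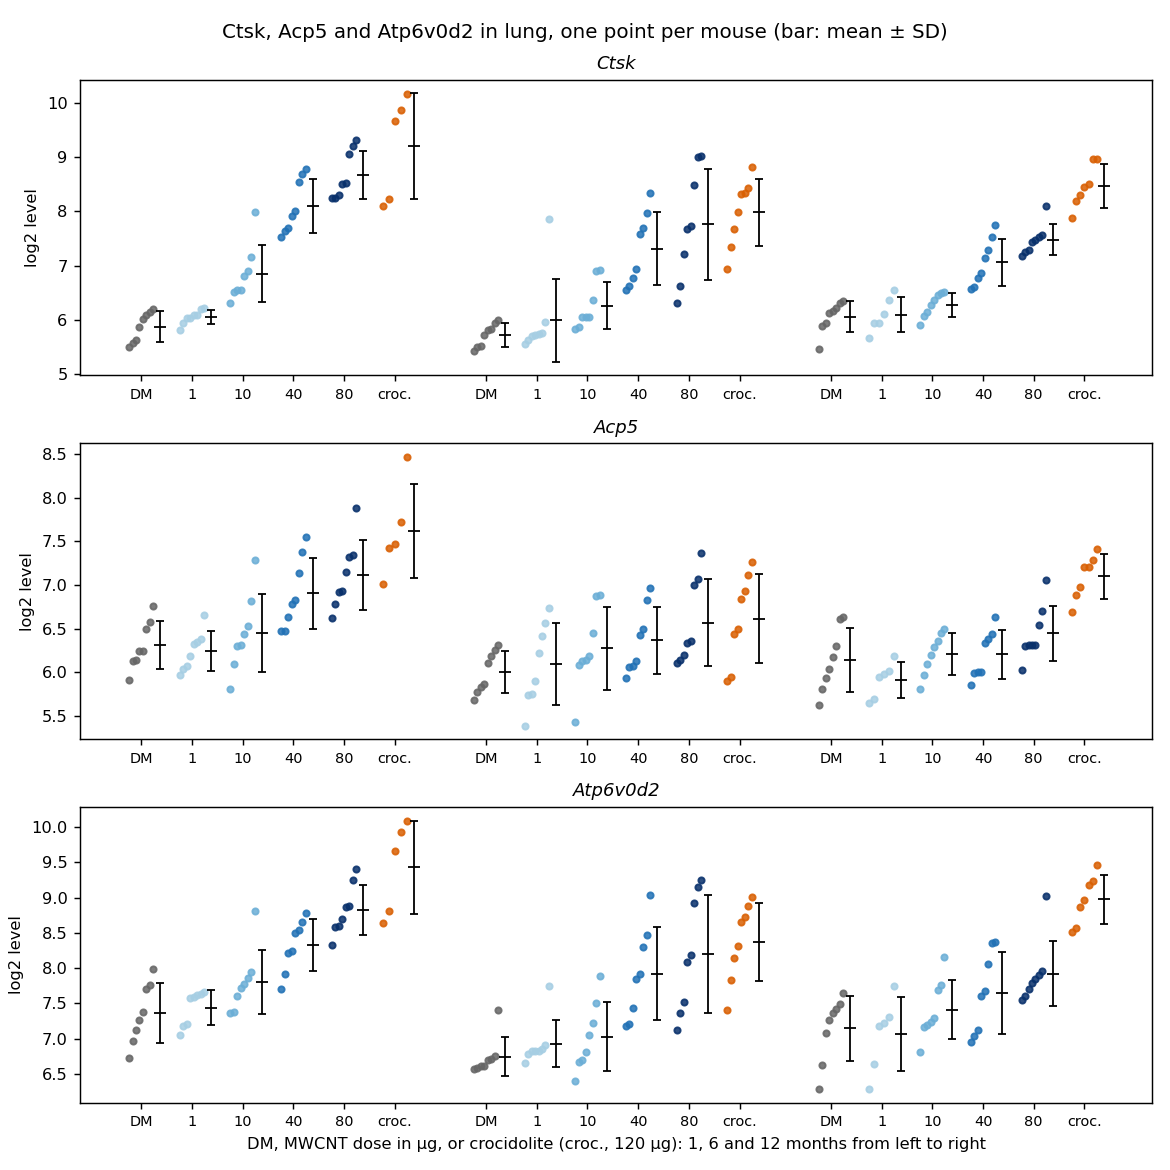
Log2 level (vertical axis) of Ctsk, Acp5 and Atp6v0d2 in each mouse, by group and time; points are mice and bars the mean ± SD. Ctsk points at 80 µg MWCNT and crocidolite sit above all DM points of the same time, while Acp5 points of several exposed groups overlap with DM.

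Acp5, the phosphatase gene, moved in the same direction but by less and mostly with crocidolite. At 1 month its lowest, median and highest levels were 5.91, 6.24 and 6.76 in DM, and 6.62, 7.04 and 7.88 at 80 µg. The 5 crocidolite mice were at 7.01, 7.43, 7.47, 7.72 and 8.47. All of the crocidolite mice and 7 of the 8 mice at 80 µg lay above the highest DM mouse. With crocidolite such a full separation was seen in 1.23% of all genes.

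Acp5 rose by 0.80 ± 0.19 at 80 µg and 1 month (1.74-fold, adjusted p = 0.00363 by limma). With crocidolite it rose by 1.31 ± 0.21 at 1 month (2.47-fold, adjusted p = 1.66e-06), 0.61 ± 0.19 at 6 months (1.53-fold, adjusted p = 0.0396) and 0.96 ± 0.19 at 12 months (1.94-fold, adjusted p = 0.000189). At 6 months DM lay between 5.69 and 6.31 and crocidolite between 5.90 and 7.26, with 6 of 8 mice above DM, and that call was lost in 9 of the fits that left out a single mouse: DM replicate 1, 5, 6, 7 or 8, or crocidolite replicate 1, 2, 7 or 8, with differences of 0.52 to 0.63. At 12 months the groups were apart, with DM from 5.62 to 6.63 and crocidolite from 6.69 to 7.42. In 1.43% of all genes every crocidolite mouse lay above every DM mouse at that time. The nanotube differences that missed the test were 0.59 ± 0.19 at 40 µg and 1 month (adjusted p = 0.176), 0.57 ± 0.19 at 80 µg and 6 months (adjusted p = 0.153) and 0.31 ± 0.19 at 80 µg and 12 months (adjusted p = 0.566). At 10 µg they were 0.14, 0.27 and 0.07, and at 1 µg -0.07, 0.09 and -0.23.

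Atp6v0d2, the pump subunit, rose at 40 and 80 µg at 1 and 6 months and with crocidolite at every time. Its lowest, median and highest levels at 1 month were 6.73, 7.32 and 7.99 in DM, 7.71, 8.37 and 8.79 at 40 µg, and 8.33, 8.78 and 9.40 at 80 µg. The crocidolite mice were at 8.64, 8.81, 9.67, 9.94 and 10.09. No mouse at 80 µg or with crocidolite overlapped with DM, and 6 of 8 at 40 µg lay above it. Every exposed mouse was above every DM mouse in 0.775% of all genes at 80 µg and 1.23% with crocidolite.

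At 6 months Atp6v0d2 ran from 6.57 to 7.41 in DM, around 6.65, and a single DM mouse at 7.41 stood above the next at 6.75. It ran from 7.12 to 9.26 around 8.13 at 80 µg and from 7.40 to 9.01 around 8.48 with crocidolite, with 6 of 8 and 7 of 8 mice above every DM mouse. At 12 months DM ran from 6.29 to 7.64, 80 µg from 7.55 to 9.02 and crocidolite from 8.52 to 9.47. The mouse at 9.02 at 80 µg stood above the next at 7.96, and apart from it the 80 µg mice lay below all crocidolite mice.

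The rise of Atp6v0d2 at 40 µg was 0.96 ± 0.24 at 1 month (1.94-fold, adjusted p = 0.0237 by limma) and 1.18 ± 0.24 at 6 months (2.26-fold, adjusted p = 0.00487). At 80 µg it was 1.46 ± 0.24 at both 1 month (2.76-fold, adjusted p = 5.37e-06) and 6 months (2.74-fold, adjusted p = 2.4e-05), and the 12-month difference of 0.78 ± 0.24 missed the test (adjusted p = 0.162). With crocidolite Atp6v0d2 rose by 2.07 ± 0.27, 1.63 ± 0.24 and 1.83 ± 0.25 at 1, 6 and 12 months (4.18-fold, 3.09-fold and 3.56-fold, adjusted p = 5.14e-09, 3.79e-07 and 1.03e-08). The 1-month call at 40 µg was lost without any of DM replicates 3, 4, 5 and 6 or 40 µg replicates 4, 5, 7 and 8, with adjusted p from 0.0508 to 0.0885. Without the 10 arrays of lowest correlation it was 0.92 ± 0.25 (adjusted p = 0.0596).

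Of the fusion genes, Dcstamp rose only at 80 µg and 1 month among the comparisons with DM, and Ocstamp in none. Both were dim. Their means over the arrays were 3.89 for Dcstamp and 3.45 for Ocstamp, below the median of 4.89 over all genes. Whether so low a level hides a change was not tested. Dcstamp lay at 2.96, 3.63 and 4.07 (lowest, median and highest) in DM at 1 month, at 3.80, 4.24 and 4.79 at 80 µg, and the crocidolite mice were at 3.57, 3.85, 4.13, 4.42 and 4.69. At 80 µg 6 of 8 mice lay above every DM mouse, and with crocidolite 3 of 5. Dcstamp rose by 0.71 ± 0.18 at 80 µg and 1 month (1.64-fold, adjusted p = 0.01 by limma), and without DM replicate 5 this was 0.62 with an adjusted p of 0.0537. The crocidolite differences were 0.54 ± 0.20, 0.40 ± 0.18 and 0.54 ± 0.18 at 1, 6 and 12 months (adjusted p = 0.105, 0.239 and 0.0601). Without crocidolite replicate 3 the 1-month value was 0.68 (adjusted p = 0.0348). The 12-month value passed the test under 4 other settings, with adjusted p of 0.0171 with array weights, 0.0264 with the groups compared alone, 0.035 with quantile normalization repeated and 0.0364 with arrays centred on their medians. It also passed without DM replicate 5 or crocidolite replicate 1 or 7, with adjusted p from 0.0388 to 0.0475.

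Ocstamp had group means between 3.28 and 3.65 in all 18 groups, and single mice ran from 2.57 to 4.36. At 80 µg and 1 month its difference was -0.01 with a 95% interval from -0.32 to 0.31, and with crocidolite it was 0.04 with an interval from -0.31 to 0.40.

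**Figure D2:**
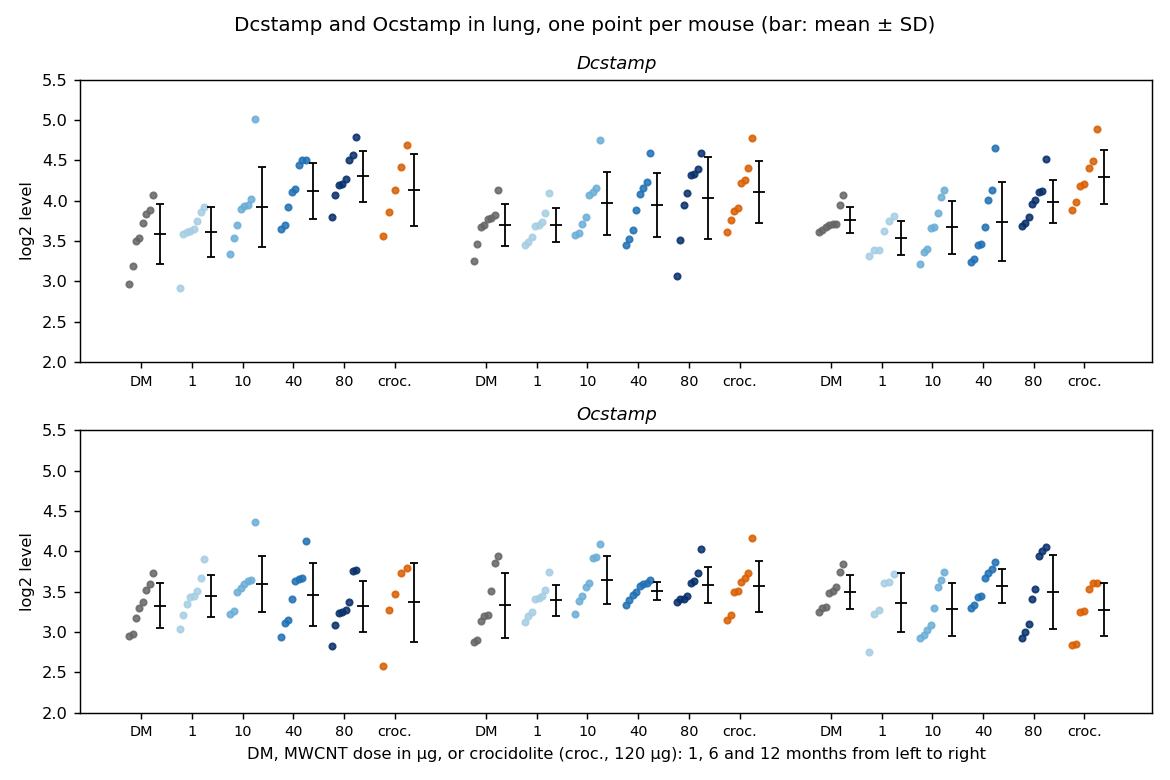
Log2 level (vertical axis) of Dcstamp and Ocstamp in each mouse, by group and time; points are mice and bars the mean ± SD. Dcstamp at 80 µg and 1 month, at a mean of 4.30, is the group with the highest mean of its panel, and the Ocstamp groups lie between means of 3.28 and 3.65.

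Counted over the 5 genes, none passed the test at 1 µg or 10 µg at any time. In limma's test at an unadjusted p under 0.05 the counts were 0 of 5 at each time for 1 µg and 1, 2 and 0 of 5 at 1, 6 and 12 months for 10 µg. Over all 22180 genes these unadjusted counts were 437, 1248 and 595 at 1 µg and 1018, 1781 and 945 at 10 µg. Among all genes, 0% rose at 1 µg at each time, and 0.018%, 0.00451% and 0% at 10 µg. At 40 µg 2, 2 and 0 of the 5 rose, and 0.555%, 0.207% and 0.0271% of all genes did. Unadjusted, 2 of 5 and 2623 of all genes passed at 40 µg and 12 months. At 80 µg 4, 2 and 1 of the 5 rose, against 1.69%, 0.803% and 0.158% of all genes. With crocidolite 3 of the 5 rose at each time, against 2.93%, 1.45% and 4.31%. No member fell in any comparison with DM. Because the 5 genes were chosen with earlier results of these data known, their counts are a description and no test against all genes.

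The median difference of the 5 genes at 1, 6 and 12 months was 0.80, 0.57 and 0.31 at 80 µg and 1.31, 0.61 and 0.96 with crocidolite, in each case the value of Acp5. Over all genes the medians were between -0.03 and 0.01 in these comparisons. Without the word replacement on the array, the 1-month 80 µg differences were 2.46 for Ctsk (adjusted p = 2.45e-06), 0.49 for Acp5 (adjusted p = 0.748), 0.91 for Atp6v0d2 (adjusted p = 0.282) and 0.65 for Dcstamp (adjusted p = 0.388). With the word they were 3.27, 1.27, 2.16 and 0.85 (adjusted p = 1.21e-07, 0.00555, 8.02e-05 and 0.201). With the word as a covariate they were 2.80, 0.81, 1.44 and 0.73 in the same order. All passed by limma (adjusted p = 9.68e-16, 0.00327, 6.3e-06 and 0.0071). A difference in effect between the kinds of array was not tested.

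At 1 month, 4 of 8 DM arrays, 3 of 8 at 80 µg, 3 of 5 with crocidolite and 0 of 8 at 40 µg carried the word. Atp6v0d2 lay at 7.76, 7.38, 7.99 and 7.71 in DM arrays without it and at 7.13, 6.73, 6.96 and 7.26 in those with it. At 80 µg it lay at 8.33, 8.58, 8.88, 8.69 and 8.60 without it and at 8.87, 9.40 and 9.25 with it. The whole DM and 80 µg groups did not overlap, so their mice could not overlap within either kind. With the word as a covariate the 40 µg difference of Atp6v0d2 at 1 month was 0.85 (adjusted p = 0.0874). For crocidolite at 1 month the differences without and with the word were 3.12 and 3.52 for Ctsk, 1.56 and 1.16 for Acp5, and 1.74 and 2.39 for Atp6v0d2, all past the test. At 12 months those of Acp5 were 0.83 (adjusted p = 0.128) and 0.96 (adjusted p = 0.0359), and those of Ctsk and Atp6v0d2 passed the test in both kinds. At 80 µg and 12 months the Ctsk differences were 1.51 (adjusted p = 0.0327) and 1.45 (adjusted p = 0.11). At 6 months 0 crocidolite arrays carried the word, and without it Acp5 stood at 0.59 in that comparison (adjusted p = 0.0593).

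**Figure D3:**
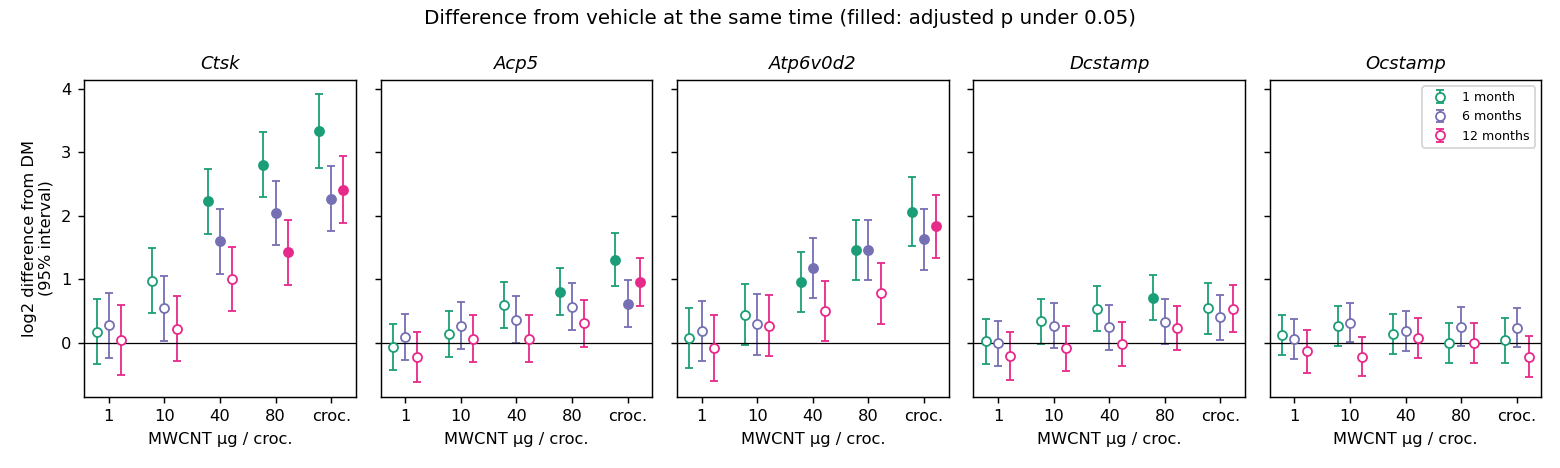
Log2 difference from DM of the same time (vertical axis) for the 5 genes in the 15 comparisons, with 95% intervals; filled points have a limma adjusted p under 0.05. Ctsk reaches 2.80 at 80 µg and 3.33 with crocidolite at 1 month, and no Ocstamp point is filled.

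The dose trend was tested as the slope of the group means from 0 to 80 µg on log2(dose + 1), with the dose in µg. At 1 month the slope per unit was 0.45 ± 0.03 for Ctsk (adjusted p = 5.19e-22 by limma), 0.13 ± 0.02 for Acp5 (adjusted p = 2.94e-05), 0.22 ± 0.03 for Atp6v0d2 (adjusted p = 4.36e-08) and 0.11 ± 0.02 for Dcstamp (adjusted p = 0.000327). Slopes of 4, 2 and 2 of the 5 genes rose at 1, 6 and 12 months, against 2.56%, 1.18% and 0.591% of all genes. Ctsk kept a called slope at 6 months (0.31 ± 0.03) and 12 months (0.22 ± 0.03), as did Atp6v0d2 (0.23 ± 0.03 and 0.13 ± 0.03). The 12-month slope of Atp6v0d2 had an adjusted p of 0.0235, and 0.0536 or 0.0827 without DM replicate 4 or 80 µg replicate 8. Acp5 had slopes of 0.08 and 0.05 at the later times (adjusted p = 0.0681 and 0.23). The former passed without 80 µg replicate 4, 5 or 7 (adjusted p = 0.0374, 0.0453 and 0.0395) and among genes above the median level alone (adjusted p = 0.0411). The 1-month slope of Acp5 was 0.10 on arrays without the word replacement (adjusted p = 0.0802). The slopes of Ocstamp were 0.00, 0.04 and 0.01.

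Of the steps between neighbouring doses, that from 40 to 80 µg was tested. At 1 month it was 0.58 for Ctsk, with an unadjusted 95% interval from 0.07 to 1.09, and 0.50 for Atp6v0d2, from 0.03 to 0.98. No member passed at any time, with 2, 0 and 0 of 5 at an unadjusted p under 0.05 by limma, and 0%, 0% and 0.00451% of all genes passed. Unadjusted, 530, 696 and 3051 of all 22180 genes passed for this step. In the order of the 18 group means of Ctsk, crocidolite at 1 month (9.21) came first, followed by 80 µg at 1 month (8.68), crocidolite at 12 months (8.47), 40 µg at 1 month (8.10) and crocidolite at 6 months (7.98). Then came 80 µg at 6 and 12 months (7.76 and 7.48), 40 µg at 6 and 12 months (7.31 and 7.06) and 10 µg at 1 month (6.85). Only the step below that, to 10 µg at 12 months (6.28), exceeded the larger SD of the neighbours, 1 of 17 steps. The last 7 groups were 10 µg at 6 months and all groups of 1 µg and DM, between 5.72 and 6.26. For Acp5, Atp6v0d2, Dcstamp and Ocstamp 0 of 17 steps exceeded that SD. Atp6v0d2 had the order crocidolite at 1 month (9.43), crocidolite at 12 months (8.97), 80 µg at 1 month (8.83) and crocidolite at 6 months (8.37) at its top.

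Crocidolite at 120 µg and MWCNT at 80 µg differ in mass as well as in material, and they were compared directly. At 12 months 2 of the 5 genes were higher with crocidolite, Ctsk by 0.99 ± 0.27 (adjusted p = 0.0388 by limma) and Atp6v0d2 by 1.05 ± 0.25 (adjusted p = 0.0115), where 0.978% of all genes differed. Acp5 was 0.65 ± 0.19 higher with an adjusted p of 0.0738. The call of Ctsk was lost when any 1 of 80 µg replicates 1 to 7 or of crocidolite replicates 2, 4, 5 and 7 was left out, with adjusted p from 0.052 to 0.119. That of Acp5 was gained without 80 µg replicate 8 (0.74, adjusted p = 0.0275) or crocidolite replicate 3 (0.72, adjusted p = 0.0462), and with array weights (0.74, adjusted p = 0.0194). On arrays without the word replacement the differences were 0.77 for Ctsk and 0.97 for Atp6v0d2 (adjusted p = 0.43 and 0.18), and with it 1.11 and 1.15 (adjusted p = 0.0477 and 0.0319).

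At 1 month the differences between crocidolite and 80 µg were 0.53 for Ctsk (95% interval from -0.05 to 1.11), 0.50 for Acp5 (from 0.08 to 0.92) and 0.60 for Atp6v0d2 (from 0.06 to 1.15), and none passed the adjusted test. Their size and sign moved with the arrays used. Without the 10 arrays of lowest correlation they were -0.01 for Ctsk, 0.27 for Acp5 and 0.30 for Atp6v0d2. On arrays without and with the word replacement they were 0.66 and 0.24 for Ctsk, 1.07 and -0.11 for Acp5, and 0.84 and 0.24 for Atp6v0d2. At 6 months they were 0.22, 0.05 and 0.17. By limma 0 of 5 members passed at 1 month and 0 of 5 at 6 months, with 2 and 0 at an unadjusted p under 0.05. Of all 22180 genes, 2270 and 1029 passed without adjustment. In these contrasts 0.0902% and 0.0271% of all genes differed, and when 1 mouse was left out the 1-month share ran from 0.0135% to 1.19%.

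The effects changed with time by amounts that did not pass the test over all genes. The Ctsk difference at 80 µg changed by -1.38 ± 0.36 from 1 to 12 months (95% interval from -2.10 to -0.66, adjusted p = 0.232 by limma), and that of Atp6v0d2 changed by -0.68 (from -1.36 to -0.01, adjusted p = 0.631). With crocidolite the Ctsk difference changed by -1.06 from 1 to 6 months (from -1.84 to -0.29, adjusted p = 0.718) and by -0.92 from 1 to 12 months (from -1.71 to -0.14, adjusted p = 0.653). That of Acp5 changed by -0.69 from 1 to 6 months (from -1.25 to -0.14, adjusted p = 0.845). No member passed in any of the 6 tests of time, with 1, 2 and 1 of 5 at an unadjusted p under 0.05 for 80 µg (6 against 1, 12 against 1 and 12 against 6 months) and 2, 1 and 1 for crocidolite. Over all genes 0%, 0.00902% and 0% passed for 80 µg, and 0.0271%, 0.0541% and 0% for crocidolite. Unadjusted, 637, 1717 and 1132 of 22180 genes passed for 80 µg and 1103, 1447 and 1523 for crocidolite. In the DM groups Atp6v0d2 differed by -0.62 ± 0.24 between 6 months and 1 month (adjusted p = 0.367 by limma). No member passed between DM groups, with 1 of 5 at an unadjusted p under 0.05 from 1 to 6 months and 0 from 1 to 12 months. Over all genes 0.135% and 1.12% passed in these contrasts, and 2066 and 2601 of 22180 genes did so unadjusted.

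The upstream signals of osteoclast formation include the cytokines RANKL and M-CSF and their receptors. Of 12 ligands and receptors, 1, 0 and 0 rose at 80 µg at 1, 6 and 12 months, and 4, 2 and 6 with crocidolite. At an unadjusted p under 0.05 by limma the counts were 7, 3 and 2 of 12 at 80 µg and 7, 4 and 7 with crocidolite, and the difference between the materials in these counts was not tested. Over all 22180 genes the unadjusted counts were 2243, 1859 and 2389 at 80 µg and 3686, 3347 and 3849 with crocidolite. They also stand beside the unadjusted counts of the lists below. The largest called difference of the 12 genes was that of Csf2rb, the shared beta chain of the receptors for GM-CSF, IL-3 and IL-5. It stood at 1.23 ± 0.21 with crocidolite at 1 month (adjusted p = 3.13e-06) and 0.86 at 80 µg (adjusted p = 0.000767). Its partner Csf2ra rose by 0.70 ± 0.19 in the former comparison (adjusted p = 0.00786), and Tnf, the inflammatory cytokine, by 0.69 ± 0.17 with crocidolite at 12 months (adjusted p = 0.0026). Tnfrsf11a, which encodes RANK, the receptor for RANKL, rose by 0.54 and 0.50 with crocidolite at 1 and 12 months (adjusted p = 0.00534 and 0.00399) and stood at 0.39 at 80 µg and 1 month (adjusted p = 0.0754). In the 6 comparisons of 80 µg and crocidolite with DM, Tnfsf11 (RANKL) differed by -0.16 to 0.34. Tnfrsf11b (the decoy receptor osteoprotegerin) differed by -0.17 to 0.46 and Csf1r (the M-CSF receptor) by 0.06 to 0.26 there. None of these differences passed. Group means of Tnfsf11 lay between 2.11 and 2.67, below the array medians of 4.01 to 4.34. Whether a change could be seen at that level was not tested.

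Co-receptors that signal through ITAM adaptors are another input into osteoclast formation. Of 12 such genes and kinases, 2, 2 and 1 rose at 80 µg and 5, 1 and 5 with crocidolite at 1, 6 and 12 months. Trem2, a lipid-sensing receptor of macrophages, rose in all 6 comparisons, by 2.00, 1.55 and 1.11 at 80 µg and by 2.36 ± 0.27 with crocidolite at 1 month (adjusted p = 5.12e-11 by limma). Clec5a, another receptor of myeloid cells, rose by 1.40 and 0.95 at 80 µg at 1 and 6 months and by 1.70 ± 0.28 with crocidolite at 1 month (adjusted p = 2.76e-06). Tyrobp, which encodes the adaptor DAP12 used by both, rose by 0.93 ± 0.22 in the latter group (adjusted p = 0.00183).

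Among the transcription factors and adaptors of osteoclast formation, 17 were measured, and 3, 0 and 0 rose at 80 µg (5, 3 and 1 of 17 at an unadjusted p under 0.05 by limma). With crocidolite 3, 0 and 2 rose at 1, 6 and 12 months, and Fos and Jun fell at 6 months. Tfec, of the MITF family, rose by 1.30 ± 0.22 with crocidolite (adjusted p = 2.68e-06) and 0.89 at 80 µg (adjusted p = 0.000973) at 1 month. Mitf itself rose by 0.39 at 80 µg and 1 month (adjusted p = 0.0337) and stood at 0.37 with crocidolite (adjusted p = 0.0538). Nfkb2 rose by 0.59 ± 0.12 with crocidolite at 1 month (adjusted p = 0.000158), and Fos, an AP-1 subunit, fell by 0.79 ± 0.23 with crocidolite at 6 months (adjusted p = 0.0262). Nfatc1, the factor that switches on the osteoclast program, differed by -0.28 to -0.04 and never passed.

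Of 12 genes of cell fusion other than Dcstamp and Ocstamp, 5, 5 and 1 rose at 80 µg and 5, 4 and 5 with crocidolite. These were Adam8, Tm4sf19, Itgb2, Cd44 and Sirpa, which have other functions in leukocytes as well. Tm4sf19, a tetraspan membrane protein, rose by 2.08 ± 0.28 with crocidolite at 1 month (adjusted p = 5.82e-09 by limma) and by 1.30 and 1.13 at 80 µg at 1 and 6 months. Adam8, a surface protease, rose in all 6 comparisons, by 1.35 ± 0.17 in the crocidolite group at 1 month (adjusted p = 1.26e-09). Itgb2, the beta chain of leukocyte integrins, rose by 1.14 ± 0.15 there (adjusted p = 8.65e-09).

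Other genes of the machinery of bone resorption were read at 80 µg and with crocidolite. Of 16 genes, 0 rose at 80 µg at any time by limma (5, 3 and 2 at an unadjusted p under 0.05), 2 rose with crocidolite at 1 month and 2 at 12 months, and Car2 (carbonic anhydrase 2) fell at 6 months. Among all genes, 2.93% and 4.31% rose with crocidolite at 1 and 12 months. Tcirg1, the a3 subunit of the V-ATPase, rose by 0.54 ± 0.15 with crocidolite at 1 month (adjusted p = 0.0102) and 0.45 at 12 months (adjusted p = 0.0212). Mmp14, a membrane metalloprotease, rose by 0.52 ± 0.16 with crocidolite at 1 month (adjusted p = 0.0348), and Snx10, a sorting nexin needed for the ruffled border, by 0.52 ± 0.12 at 12 months (adjusted p = 0.0014).

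Of the 23 V-ATPase genes measured beside Atp6v0d2 (Atp6v0c of the 24 listed had no feature of its own), 7 rose with crocidolite at 1 month, 0 at 6 months and 6 at 12 months, and 1, 0 and 0 at 80 µg. At an unadjusted p under 0.05 by limma 8 passed with crocidolite at 6 months, and 7 and 2 at 80 µg at 6 and 12 months. The largest rises were those of Atp6v1b2 (0.59 ± 0.11, adjusted p = 6.32e-05) and Atp6v1c1 (0.57 ± 0.12, adjusted p = 0.000342), subunits of the part that splits ATP, with crocidolite at 1 month. Atp6v0d1, which encodes the d1 form of the subunit, rose by 0.41 ± 0.11 with crocidolite at 1 month (adjusted p = 0.0056) and 0.41 at 12 months (adjusted p = 0.00186), and stood at 0.03 at 6 months. At 80 µg it stood at 0.31, 0.19 and 0.11. The median over the 23 genes was 0.24, 0.07 and 0.21 with crocidolite at 1, 6 and 12 months, beside the 2.07, 1.63 and 1.83 of Atp6v0d2.

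**Figure D4:**
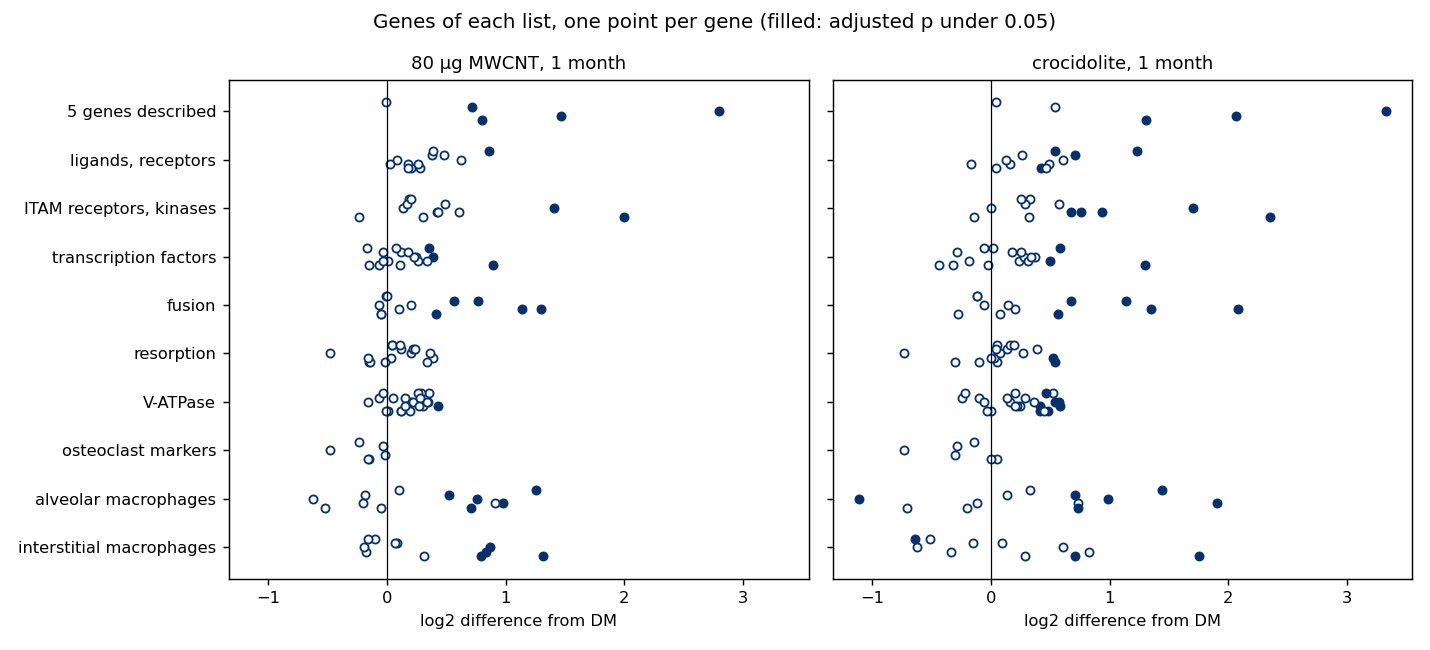
Log2 difference from DM at 1 month (horizontal axis) for each gene of the pathway and marker lists (a line of points a list), at 80 µg MWCNT and with crocidolite; filled points have a limma adjusted p under 0.05. The medians of the 5 members are 0.80 at 80 µg and 1.31 with crocidolite, and those of the osteoclast marker list are -0.16 and -0.21. With crocidolite the members run from 0.04 (Ocstamp) to 3.33 (Ctsk).

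Markers were read to see which cells the lungs held. The labels give lung as the tissue. Among the listed genes of lung epithelium, Sftpc lay between 12.3 and 12.7 over all mice and Scgb1a1 between 12.2 and 12.8. Hopx lay between 5.03 and 7.55, Foxj1 between 6.24 and 8.20 and Epcam between 6.82 and 8.49. Of 6 osteoclast markers not among the members, Calcr, Oscar, Itgb3, Mmp9, Nfatc1 and Siglec15, 0 rose or fell in the 6 comparisons by limma (1, 0 and 0 at an unadjusted p under 0.05 at 80 µg, and 3, 2 and 1 with crocidolite). Calcr, the calcitonin receptor, lay between 2.42 and 4.81 over all mice, and Oscar between 1.79 and 3.58, while Itgb3 (6.32 to 7.64) and Mmp9 (4.96 to 7.88) are also made by platelets and neutrophils. Mmp9 stood at -0.73 with crocidolite at 1 month (adjusted p = 0.0756), Itgb3 at -0.30 and Calcr at 0.05. The mean over the 6 markers in a mouse was 4.98 to 5.40 in DM, 4.78 to 5.21 at 80 µg and 4.81 to 5.07 with crocidolite at 1 month. Of 8 measured genes of osteoblasts and osteocytes, 0 passed by limma, with 0 at an unadjusted p under 0.05 in 5 of the 6 comparisons and 1 with crocidolite at 12 months.

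Several macrophage genes were also higher in the exposed lungs. Of 12 measured markers of alveolar macrophages, 5, 2 and 0 rose at 80 µg and 5, 2 and 6 with crocidolite, and 1 fell with crocidolite at each time (Fabp1 at 1 month and Car4 later). Itgax (CD11c) rose by 1.25 and 1.44 at 80 µg and with crocidolite at 1 month, and Chil3, a secreted chitinase-like protein, by 0.97 and 1.91. The mean over these markers in a mouse was 6.87 to 7.51 in DM, 7.13 to 7.69 at 80 µg and 7.26 to 7.90 with crocidolite at 1 month. Of 11 measured markers of interstitial macrophages and monocytes, 4, 4 and 1 rose at 80 µg and 2, 4 and 4 with crocidolite, with Lyve1 lower at 1 month, and their mean was 6.51 to 7.05 in DM, 6.91 to 7.33 at 80 µg and 6.66 to 7.18 with crocidolite at 1 month. The part of such cells in the values of Ctsk, Acp5, Atp6v0d2 and Dcstamp was not tested. Which cells of the lung made each of the listed markers was not tested either, Car4 and Lyve1 included.

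Markers of other cell types were read in the same way. Of 9 dendritic cell markers, 2 rose with crocidolite at each time, and 3, 0 and 1 rose at 80 µg (3 at an unadjusted p under 0.05 at 6 months by limma). Of 12 fibroblast markers, 5, 3 and 4 fell with crocidolite and Col3a1, a collagen chain, rose at 1 month. None passed at 80 µg (3, 4 and 6 of 12 unadjusted by limma). Of 10 epithelial markers, 2, 1 and 6 rose with crocidolite and 1, 1 and 0 at 80 µg (2 unadjusted at 12 months). Of 9 markers of T and B lymphocytes, 4 and 1 fell with crocidolite at 1 and 12 months, and 1 fell at 80 µg at 12 months. At an unadjusted p under 0.05 by limma, 3, 4 and 8 of 9 passed at 80 µg at 1, 6 and 12 months. With crocidolite 5, 5 and 7 did. The median differences of these markers were -0.18, -0.31 and -0.40 at 80 µg and -0.43, -0.36 and -0.43 with crocidolite. Skeletal muscle genes, whose mean in a mouse ran from 3.34 to 7.24 in DM, 3.02 to 6.06 at 80 µg and 3.10 to 3.47 with crocidolite at 1 month, passed in none of the 6 comparisons (2, 0 and 1 of 10 at an unadjusted p under 0.05 at 80 µg and 7, 0 and 0 with crocidolite by limma), and their part in the members' values was not tested. Squamous epithelium genes had a mean of 2.83 to 6.78 in DM at 1 month, and 1 of 9, Trp63, rose with crocidolite at 6 and 12 months.

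Mice of a group differed together in these genes. After subtraction of the group means, Ctsk and Atp6v0d2 correlated across all mice at r = 0.83, Ctsk and Acp5 at 0.56 and Acp5 and Atp6v0d2 at 0.51, as a description of values that share array and normalization. Dcstamp correlated with Ctsk at 0.31, with Acp5 at 0.22 and with Atp6v0d2 at 0.30, and Ocstamp with the others between -0.08 and 0.11. Within groups, the alveolar macrophage markers correlated with Ctsk at 0.41, with Acp5 at 0.58 and with Atp6v0d2 at 0.53. The interstitial markers correlated at 0.35, 0.71 and 0.35 in the same order, and the osteoclast markers at -0.19, 0.01 and -0.18. Acp5 also went with dendritic cell markers (0.61) and lymphocyte markers (0.47), where Ctsk stood at 0.32 and 0.09. Lung epithelium markers correlated at 0.27 with Ctsk, 0.12 with Acp5 and 0.45 with Atp6v0d2, and fibroblast markers at -0.22, 0.10 and -0.32. Skeletal muscle genes correlated with the 3 genes between 0.03 and 0.17, and squamous genes between 0.02 and 0.10.

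**Figure D5:**
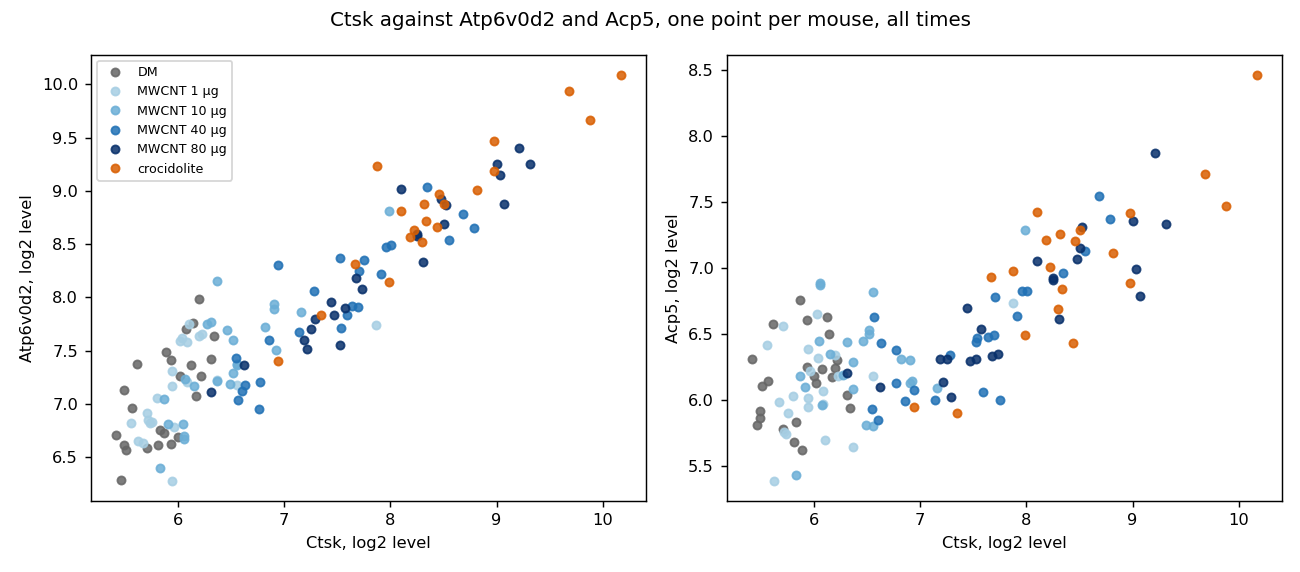
Log2 level of Ctsk (horizontal axis) against those of Atp6v0d2 and Acp5 (vertical axes), a point for each mouse, coloured by exposure. Ctsk and Atp6v0d2 lie along a narrow band, with r = 0.83 within groups, and Acp5 scatters more widely, with r = 0.56.

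Over the 18 group means, Ctsk and Atp6v0d2 correlated at r = 0.97, Ctsk and Acp5 at 0.92 and Acp5 and Atp6v0d2 at 0.95, where all points share the DM and exposure structure. The genes whose group means were most like those of Ctsk were Mmp12 (r = 0.983), Ctsd (0.982), Trem2 (0.982), Gpnmb and Ms4a7 (0.977), of which Mmp12 encodes macrophage elastase and Ctsd the lysosomal protease cathepsin D. Those most like Atp6v0d2 were Lgals3 (0.985), Lrp12, Csf2rb2, Ctsd and Cd68 (0.981), where Lgals3 encodes galectin-3 and Cd68 a lysosomal protein of macrophages. For Acp5 they were Itga7 (0.983), Ctsz, Pld3, Tnip3 and Awat1 (0.967), with Ctsz encoding the lysosomal protease cathepsin Z. The genes most like Dcstamp were Mt2 (0.925), Muc4, C1qc, Retnla and Mmp12 (0.907), and those most like Ocstamp, Tcstv3, Cndp1, Cma2, Crhbp and Ptchd4, reached only 0.762 to 0.723.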

How the data were processed

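RNA from mouse lung was measured on Affymetrix arrays, 139 arrays in 18 groups placed by treatment, dose and time in the labels. The deposited values are log2 expression per feature; per the submitters' processing notes the tools were RMA, oligo and limma, with versions, roles and genome build not given in the sources used here. Values ran from -0.0497 to 13.3, with array medians from 4.01 to 4.34. The labels number the mice, so replicates are separate animals, and replicate numbers given here only name a mouse. One mouse (1 µg, 1 month) had 2 arrays, which were averaged.

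Of 41345 features, 23521 were paired with 1 gene symbol, 1814 with several and 16010 with none, from the platform annotation. By Entrez number 23328 of the first matched RefSeq records of assembly GRCm38.p6 and 0 symbols changed. The feature with the highest mean was kept for each gene, which set 1341 aside and left 22180. A linear model with group means as its terms (120 residual degrees of freedom) was fitted with limma 3.58.1 in R 4.3.3, with data.table version 1.17.8, with two-sided moderated tests and Benjamini-Hochberg adjustment over all genes of a comparison, and a threshold of 0.05. The fit was tested on simulated data. Promoter windows were searched in Python 3.11.15 and figures drawn with matplotlib 3.10.9. The number of arrays limits the precision.

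The 5 genes, the pathway and marker lists and the tests were chosen with earlier results of these data known. Genes named beside them were a fixed panel (Atp6v0d1, Tnfsf11, Tnfrsf11a, Tnfrsf11b, Csf1r, Nfatc1, Mitf, Tcirg1, Calcr, Oscar, Itgb3 and Mmp9), up to 3 genes of each pathway list with the largest called difference at 80 µg or with crocidolite, and for each member the 5 genes of highest Pearson r over group means. A few list members were named after their values were seen, to say which genes a count holds. Alternatives were other normalization, moderation, weights, filters and features per gene, subsets of arrays, and each mouse left out in turn.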

Additional observations from a re-analysis of the deposited data

Results flagged for a closer look

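In each group of 5 to 8 mice the highest or lowest mouse was compared with its nearest neighbour and the whole range (Dixon's ratio at the 95% level). Of 90 combinations of gene and group, 9 had a mouse that stood apart, and chance gives about 1 in 20.

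In 3 mice more than 1 member stood apart. Replicate 7 of 1 µg MWCNT at 6 months had Ctsk at 7.87, with the next mouse at 5.96, and Atp6v0d2 at 7.74, with the next at 6.91. Replicate 8 of 80 µg MWCNT at 12 months had Ctsk at 8.10 (next 7.57) and Atp6v0d2 at 9.02 (next 7.96). Replicate 8 of 10 µg MWCNT at 1 month had Atp6v0d2 at 8.81 (next 7.94) and Ocstamp at 4.36 (next 3.64), and its Ctsk, at 7.99, was the highest of its group.

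The other 3 were single values. Atp6v0d2 was at 7.41 in replicate 2 of DM at 6 months, with the next mouse at 6.75. Dcstamp was at 5.01 in replicate 7 of 10 µg MWCNT at 1 month (next 4.03), the highest level of that gene in any mouse, and at 2.91 in replicate 4 of 1 µg MWCNT at 1 month, where the next mouse above it was at 3.58.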

How the results depend on the processing

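No paired analysis was possible because the labels give no replicate numbers shared between groups. No called difference of a member changed sign under any alternative run, while differences that were not called did. Between crocidolite and 80 µg at 1 month, Ctsk was -0.01 without the 10 arrays of lowest correlation and Acp5 -0.11 on arrays with the word replacement, and Dcstamp at 12 months was -0.10 on arrays without it. Of 910 differences and slopes of members recomputed under settings other than leaving out a mouse, 28 changed sides of the threshold. Some of the 910 had little room to move. Each member had 1 feature, so the choice of feature per gene could not change its differences or slopes. The choice of array for the mouse with 2 arrays could change only the 1-month slopes. Where no cause is named, the cause was not tested.

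The number of members higher with crocidolite than with 80 µg at 12 months, 2, was 1 with quantile normalization repeated, 1 without the 10 arrays of lowest correlation, 0 on arrays without the word replacement and 3 with array weights. With the groups compared alone, Atp6v0d2 at 80 µg and 6 months was 1.46 (adjusted p = 0.0501 by limma) and 1 member rose there, and Acp5 with crocidolite at 6 months was 0.61 (adjusted p = 0.0719). At 40 µg and 12 months 1 member rose in place of 0 with the groups compared alone, with array weights, on arrays without the word and among genes above the median level. At 40 µg and 1 month 1 rose in place of 2 without the 10 arrays, with the word as a covariate and on arrays without it (Atp6v0d2 0.61, adjusted p = 0.653). On arrays without the word 1 member rose at 80 µg and 1 month, with Acp5 at 0.49 and Atp6v0d2 at 0.91, and Acp5 with crocidolite stood at 0.59 at 6 months and 0.83 at 12 months. On arrays with the word 0 members rose at 80 µg and 12 months (Ctsk 1.45, adjusted p = 0.11), and 1 had a called slope at 12 months (that of Atp6v0d2 was 0.14, adjusted p = 0.521). These subsets hold fewer mice, and the subset with the word could not be fitted at 6 months. The filter on dim genes removes Dcstamp and Ocstamp.

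Leaving out 1 mouse at a time, Acp5 with crocidolite at 6 months ranged from 0.52 to 0.71. The members higher ranged from 1 to 3 for crocidolite against 80 µg at 12 months, from 1 to 2 at 40 µg and 1 month, from 0 to 1 at 40 µg and 12 months, from 3 to 4 with crocidolite at 1 month, from 2 to 3 for the 6-month slope and from 1 to 2 for the 12-month slope. The members higher also ranged from 3 to 4 with crocidolite at 12 months and from 3 to 4 at 80 µg and 1 month, in both cases through Dcstamp. With crocidolite at 6 months they ranged from 2 to 3, through Acp5. Over all alternatives Ctsk ranged from 2.46 to 3.27 at 80 µg and from 2.74 to 3.61 with crocidolite at 1 month.

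Counts over all genes moved more. With crocidolite at 1 month 1277 genes changed, but fewer with the groups alone, 812 with array weights, 259 without the 10 arrays, and 389 on arrays without the word and 261 with it. At 80 µg and 1 month the 398 became 631 with weights and 72 and 148 by the word. At 6 months the 207 became 24 with the groups alone, 517 with weights and 54 without the word, and at 12 months the 39 became 21, 127 and 207, with 94 without the 10 arrays and 5 with the word. For crocidolite at 12 months the 1434 became 2279 with weights and 628 without the word, and at 6 months the 816 became 1586 with weights. Leaving out 1 mouse, the genes that changed in either direction ran, as a share of all genes, from 2.83% to 7.61% with crocidolite at 1 month, 2.23% to 4.04% at 6 months, 0.338% to 1.30% at 80 µg and 6 months, 0.0586% to 0.406% at 12 months, 0.0992% to 0.266% at 40 µg and 6 months and 0.0135% to 0.50% at 12 months. For crocidolite against 80 µg at 12 months they ran from 0.487% to 1.34%, and for the 6-month and 12-month slopes from 0.807% to 1.89% and 0.546% to 3.75%. With quantile normalization repeated, the higher genes went, as a share of the called ones at 80 µg and 6 months, from 86.0% to 73.2%, and with arrays centred, those of crocidolite at 12 months went from 66.6% to 80.2%.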

Other observations

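Both arrays labelled as the same mouse of 1 µg MWCNT at 1 month gave Ctsk at 5.65 on the array with the word replacement and 6.80 on the other, while Atp6v0d2 was at 7.58 and 7.74 and Acp5 at 6.15 and 6.21. The gap in Ctsk is larger than the SD of 0.14 of the group's means over mice.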
